A study of Mus musculus with 23 samples.

Results

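The 9 genes described here make, carry or sense retinoic acid, the vitamin A derivative that acts as a hormone inside cells. They were chosen by name: the retinal dehydrogenases Aldh1a1, Aldh1a2 and Aldh1a3, the retinal reductase Dhrs3, the retinoic acid receptors Rara, Rarb and Rarg, and the retinoic acid binding proteins Crabp1 and Crabp2. Their RefSeq transcripts matched 11 of the 55681 non-control probes of the array, which carried 20145 named genes in all. Of the 9 genes, 5 were well above background on every array (Aldh1a1, Dhrs3, Rara, Rarg and Crabp2), and the other 4 were well above background on at most 1 of the 23 arrays.

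The cells were TM4, an immortalized line of mouse Sertoli cells (the somatic cells that nurse developing germ cells), treated for 48 hr with 1 of 5 plasticizer-related compounds at 100 µM or with the 1% DMSO vehicle that all groups received. MEHP (mono(2-ethylhexyl) phthalate) is the active metabolite of the phthalate plasticizer DEHP, DINCH is diisononyl cyclohexane-1,2-dicarboxylate, DOM is dioctyl maleate, BDB is 1,4-butanediol dibenzoate and DOS is dioctyl succinate. RNA of each culture was hybridized to its own 1-colour array, with 4 biological replicates per group and 3 for DOS (replicates 1, 3 and 4), for which the study left out an array with high background. All arrays came from 1 cell line at a single dose and time, so the results describe cultures of that line and not Sertoli cells in the testis.

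Retinol enters cells and is oxidized reversibly to retinal by retinol dehydrogenases, and reductases such as DHRS3 turn retinal back into retinol. The ALDH1A enzymes then oxidize retinal to retinoic acid in a step that is not reversed, binding proteins of the CRABP family carry the product, and receptors of the RAR family bind it in the nucleus together with an RXR partner. In the testis, Sertoli cells are a source of retinoic acid, which germ cells need to enter differentiation and meiosis.

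On each array the log2 signals were set relative to the array's own 75th percentile, so that a value of 0 is a probe as bright as that percentile, and each value below is on this scale. The 75th percentile lay between 204.6 and 350.7 signal units, between 43.4% and 52.2% of the non-control spots were well above background, and 15 of the 23 arrays had all extraction measures in range. Arrays carry no read counts, and their number sets how precise each mean is. Of 16 Sertoli cell markers, 7 were well above background on all arrays, among them Gata4, Inha and Nr5a1, whereas Wt1, Fshr and Cldn11 were on none and Amh was on 1. The germ cell markers Ddx4 and Dazl were on no array and Sycp3 was on 4. Of the Leydig cell genes, Cyp17a1 was on all arrays, Star on 12, and Cyp11a1, Hsd3b1 and Lhcgr on none. The myoid genes Acta2 and Cnn1 were on all arrays, Des was on 4 and Myh11 on none. Of these markers, Dhh rose with DINCH, Inha and Inhbb rose with DOM, and Cnn1 fell with DOM (Inha was not called after normexp background correction). Sox9 read lower with DOM, but it was well above background on only 2 DOM arrays, against 4 DMSO arrays. Its probe thus entered the test only through DMSO, where it was higher, and it was not called after normexp background correction. Inha was also called with DINCH (0.64, adjusted p = 0.0276), a call lost under 11 of 20 alternatives, among them the loss of DMSO replicate 1, 2 or 3 (0.55, 0.65 and 0.63) or DINCH replicate 1, 3 or 4 (0.58, 0.59 and 0.67). Their part in the retinoid results was not tested.

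Retinoic acid switches on Rarb and Cyp26a1, the gene of an enzyme that breaks retinoic acid down, through a response element close to their start sites, and both genes are textbook readouts of the pathway. Their promoters are shown beside those of Aldh1a1 and Dhrs3, the members called against DMSO. The sequences are the 250 bases before the RefSeq start in the GRCm38.p6 build, written 5′ to 3′ on the strand of the gene, with capitals for 2 copies of GTTCA in the same direction and 6 bases between them, the shared letters of the classical retinoic acid response element. Rarb lies at chr14:16575477-16575726 on the minus strand and Cyp26a1 at chr19:37697558-37697807 on the plus strand. The Aldh1a1 stretch is chr19:20492333-20492582 and the Dhrs3 stretch is chr4:144892577-144892826, both on the plus strand and each the first of several promoters listed for the gene. None of the stretches was matched to the transcript that the gene's probe reads.
Rarb: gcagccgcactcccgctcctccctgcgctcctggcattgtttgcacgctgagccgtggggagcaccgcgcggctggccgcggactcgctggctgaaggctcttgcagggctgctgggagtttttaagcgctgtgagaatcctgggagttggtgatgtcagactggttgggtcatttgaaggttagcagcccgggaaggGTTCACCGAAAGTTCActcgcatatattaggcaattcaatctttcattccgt
Cyp26a1: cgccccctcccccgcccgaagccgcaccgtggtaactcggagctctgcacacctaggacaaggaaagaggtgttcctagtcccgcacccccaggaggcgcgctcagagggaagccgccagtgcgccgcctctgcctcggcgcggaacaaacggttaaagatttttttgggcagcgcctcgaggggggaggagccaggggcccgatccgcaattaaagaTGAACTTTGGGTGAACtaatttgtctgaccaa
Aldh1a1: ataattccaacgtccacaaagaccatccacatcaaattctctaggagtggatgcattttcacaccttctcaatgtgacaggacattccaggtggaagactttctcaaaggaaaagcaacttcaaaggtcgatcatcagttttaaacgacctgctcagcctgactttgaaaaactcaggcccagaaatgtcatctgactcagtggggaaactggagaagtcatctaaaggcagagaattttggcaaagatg
Dhrs3: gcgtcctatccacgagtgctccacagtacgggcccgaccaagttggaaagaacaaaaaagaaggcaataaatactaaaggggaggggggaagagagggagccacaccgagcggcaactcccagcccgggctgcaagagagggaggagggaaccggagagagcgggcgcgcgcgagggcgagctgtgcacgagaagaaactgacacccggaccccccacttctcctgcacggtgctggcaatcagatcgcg

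The repeat ended 37 bases before the start of Rarb and, read on the opposite strand, 17 bases before that of Cyp26a1. Both strands of all 32851 RefSeq promoters were searched from 250 bases before to 50 bases after the start, and 25 promoters (0.0761%) held the repeat. Among the 14 promoters of 7 members, Rarb was the 1 with a match, and Aldh1a3 and Crabp2 had no promoter in the table. A second repeat, AGGTCA and AGGTCA in the same direction with 1 base between them, was found in 0.0396% of all promoters and in 0 of the 14. A match of letters is not a measured binding site, and the lack of one in this window says nothing about regulation from elsewhere. The array files held no probe sequences, so none are shown.

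Rarb and Cyp26a1 were near or below background in these cultures under all 6 treatments. Rarb, which has 2 probes, was well above background on 1 array, DOS replicate 3, at -4.55 on its brighter probe, and the other 22 arrays ranged from -6.69 to -4.28 on that probe. Its second probe was not well above background on any of the 23 arrays. The probes of Cyp26a1 and Cyp26c1 were well above background on 0 of 23 arrays and that of Cyp26b1 on 5.

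Aldh1a2, the main retinoic acid forming enzyme of early embryos, was well above background on 1 array, DINCH replicate 1, at -3.92, while its other values ran from -7.13 to -4.26. Aldh1a3 (-7.45 to -5.77) and Crabp1 (-7.01 to -4.36) were not well above background on any array. For these 4 members no change was tested, and their signals set only an upper limit to the level in each group. Of the 3 ALDH1A enzymes among the members, Aldh1a1 was therefore the only one measured on more than 1 array.

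**Figure D1:**
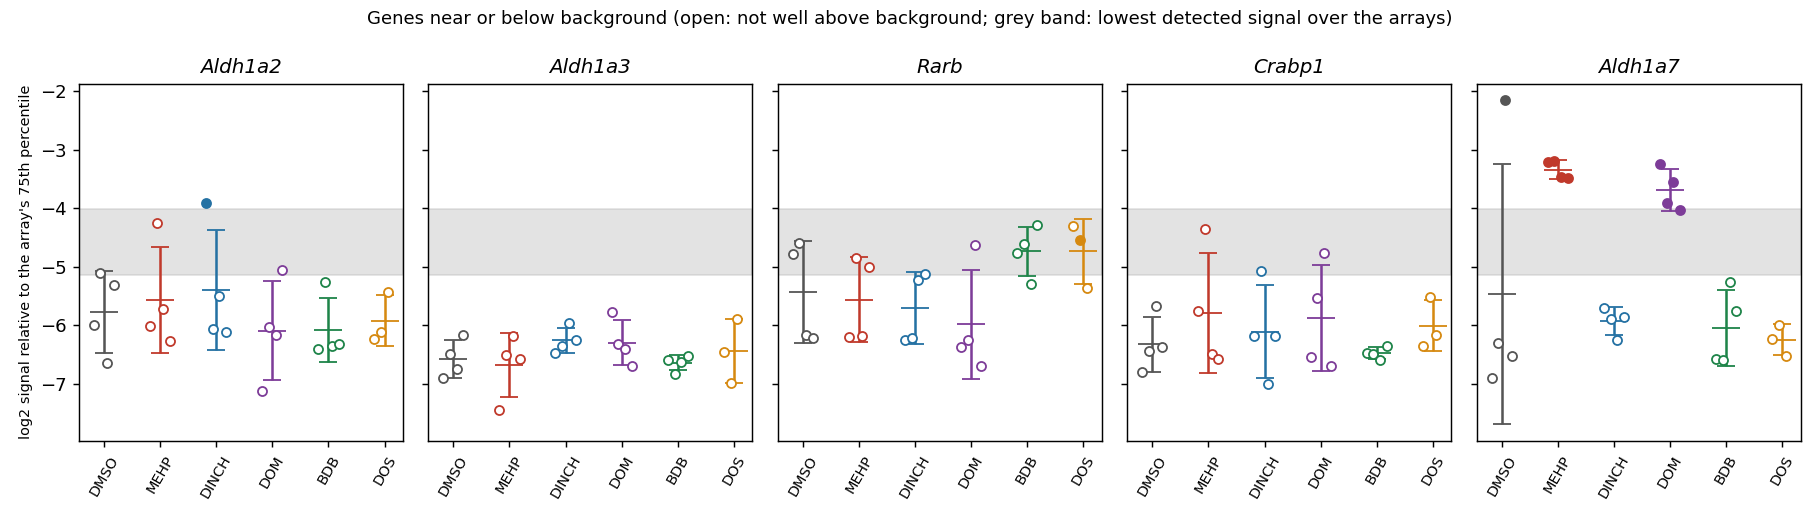
Log2 signal relative to the array's 75th percentile on each of the 23 arrays for Aldh1a2, Aldh1a3, Rarb (brighter probe), Crabp1 and Aldh1a7, with the mean and SD of each group as bars; open points were not well above background and the grey band spans the lowest detected signals of the arrays. Among the 4 members shown, 1 DINCH array (Aldh1a2) and 1 DOS array (Rarb) have a filled point, whereas all 4 MEHP arrays, all 4 DOM arrays and 1 DMSO array do for Aldh1a7.

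Aldh1a1, which oxidizes retinal to retinoic acid, rose with MEHP, DINCH and DOM. The DMSO arrays stood at -1.80, -1.64, -1.66 and -1.77, a mean of -1.72 ± 0.08 (SD, n = 4). The MEHP arrays stood at 0.13, 0.23, 0.02 and 0.16, all far above every DMSO array and close together. With DINCH the values were 0.04, -0.52, -0.87 and -0.18, and with DOM they were -0.16, -0.49, -0.64 and -0.43. Both groups lay wholly above DMSO, but DINCH was the most spread of the 6 groups (SD 0.40). The BDB arrays (-1.72, -1.40, -1.60 and -1.68) overlapped with DMSO, and the 3 DOS arrays (-1.0, -0.90 and -0.89) lay between DMSO and the DOM arrays with no overlap on either side.

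The change of Aldh1a1 against DMSO was 1.85 log2 units for MEHP (standard error 0.08, 3.62-fold, limma adjusted p = 3.65e-05), 1.33 for DINCH (standard error 0.18, 2.52-fold, adjusted p = 0.00508) and 1.29 for DOM (standard error 0.12, 2.44-fold, adjusted p = 0.000241). A gene counted as called when a probe had a Benjamini-Hochberg adjusted p below 0.05 over all tested probes together with a fold above 1.5, and all 3 changes were called. The DINCH call was lost when all probes were tested (adjusted p = 0.0512) and when only the arrays with all measures in range were used, which left out DINCH replicates 1 and 2 and DMSO replicate 4 (1.17 log2 units, adjusted p = 0.0769). In RNA of a whole culture, more cells with the transcript and more transcript per cell cannot be told apart.

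BDB gave a change of Aldh1a1 of 0.12 log2 units with a 95% confidence interval of -0.10 to 0.34 (adjusted p = 0.653). DOS gave 0.79 with an interval of 0.57 to 1.01 and an unadjusted p of 2.8e-05, but the adjusted p of 0.339 over all probes missed the threshold. Under 19 alternative settings the DOS adjusted p ran from 0.0727 to 0.928, and its change stayed between 0.52 and 0.84. For DOS the interval excludes no change while the adjustment over all probes gives no call, and for BDB a change of 1.5-fold lies outside the interval.

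The arrays lay on 3 slides, and DMSO, DOM and DOS shared slide rows in which no MEHP, BDB or DINCH array lay, so row and compound cannot be told apart for those 3. BDB, in the rows of MEHP and DINCH, differed from DMSO by 0.12 in Aldh1a1, and DOM, in the rows of DMSO, by 1.29. In Dhrs3 the same differences were -0.72 for BDB and -0.46 for DOM, beside -1.75 for MEHP. Whether slide row had a part in any of these differences was not tested. Within the 3 slides the Aldh1a1 difference was 1.98, 1.67 and 1.93 for MEHP, 1.84, 1.13 and 1.24 for DINCH and 1.47, 1.01 and 1.35 for DOM. The differences were above 0 on each slide for these compounds. For DOS, which had no array on the second slide, they were 0.80 and 0.88.

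Dhrs3, which reduces retinal to retinol and so opposes retinoic acid formation, fell with MEHP. Its DMSO values were 0.53, 1.14, 1.15 and 1.20, a mean of 1.00 ± 0.32 (SD, n = 4). The MEHP values were -1.02, -0.66, -0.51 and -0.80, so every MEHP array lay below every DMSO array. The change was -1.75 log2 units (standard error 0.17, 3.36-fold lower, adjusted p = 0.00581), and within the 3 slides it was -1.36, -1.66 and -2.0. The call was lost when all probes were tested (adjusted p = 0.0713).

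In the other groups Dhrs3 spread widely and was not called. DINCH arrays stood at 1.86, 0.89, 1.39 and 1.32 (change 0.36, 95% confidence interval -0.13 to 0.86, adjusted p = 0.347) and DOS arrays at 0.86, 1.81 and 1.36 (change 0.34, interval -0.22 to 0.90, adjusted p = 0.855). The DOM arrays, at 0.73, 0.28, -0.01 and 1.19, reached from below DMSO into its range (change -0.46, interval -1.04 to 0.13, adjusted p = 0.214). With BDB 1 array stood at -0.35 and the others at 0.46, 0.46 and 0.56. The values 0.46, 0.46 and -0.35 lay below every DMSO array, and the BDB difference of -0.72 (interval -1.22 to -0.21) had an unadjusted p of 0.0103 and an adjusted p of 0.189. With the slide as a block the same BDB change was called (adjusted p = 0.0463).

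**Figure D2:**
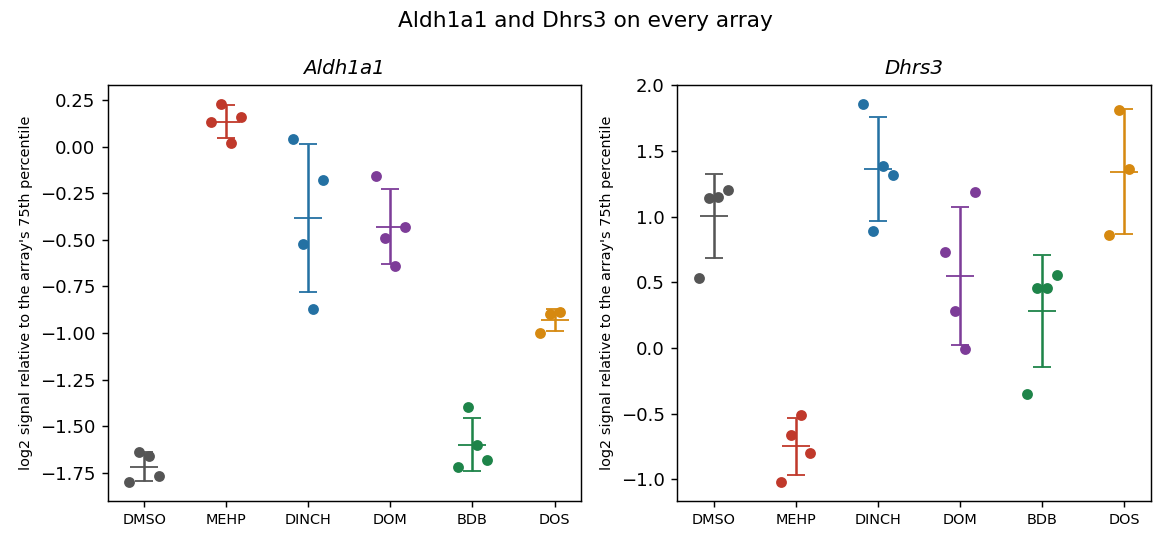
Log2 signal of Aldh1a1 (left) and Dhrs3 (right) relative to the array's 75th percentile, 1 point per array, with the mean and SD of each group as bars (n = 4, DOS n = 3). The MEHP arrays have the highest mean for Aldh1a1 (0.02 to 0.23, overlapping with the highest DINCH array at 0.04) and are the lowest for Dhrs3 (-1.02 to -0.51), while the DINCH and DOM arrays are above DMSO for Aldh1a1 and overlap with it for Dhrs3.

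Rara, the receptor that most tissues express, was measured by 2 probes on all arrays and was not called against DMSO. Its brighter probe read 2.52, 2.77, 2.86 and 2.86 in DMSO and 3.22, 3.31, 3.16 and 3.43 with DOM, with no overlap. The difference of 0.53 (standard error 0.11, 1.44-fold) had an adjusted p of 0.00739 and stayed below the 1.5-fold needed for a call, and the second probe gave 0.31 (adjusted p = 0.0426). With BDB the brighter probe read 2.24, 2.17, 2.51 and 2.44, each below every DMSO array (difference -0.41, interval -0.67 to -0.15, adjusted p = 0.154). The second probe gave -0.01 for BDB (interval -0.23 to 0.21), so the probes disagreed there. MEHP, DINCH and DOS gave 0.02, 0.00 and -0.03 on the brighter probe, with adjusted p-values of 0.939 to 0.987.

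Rarg, the receptor found in spermatogonia and epithelia among other cells, differed from DMSO by 0.22 log2 units at most. The means were 4.68 ± 0.13 in DMSO, 4.75 ± 0.05 with MEHP, 4.90 ± 0.15 with DINCH, 4.84 ± 0.21 with DOM, 4.49 ± 0.07 with BDB and 4.73 ± 0.12 with DOS (SD, n = 4, DOS n = 3). All 5 groups overlapped with DMSO, and adjusted p-values ran from 0.259 to 0.968. The intervals of all 5 differences lay within -0.40 and 0.47, inside the 1.5-fold limits.

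Crabp2, the binding protein that hands retinoic acid to the receptors, was higher with DINCH than with DMSO but did not pass the fold limit. DMSO arrays read 0.48, 0.55, 0.64 and 0.49, and DINCH arrays read 1.25, 0.90, 1.03 and 1.02. All DINCH arrays lay above every other array in the study. The difference of 0.51 (standard error 0.10, interval 0.28 to 0.74, 1.42-fold) had an adjusted p of 0.0173, which was 0.145 when all probes were tested. DOS arrays read 0.68, 0.78 and 0.68, all above DMSO (difference 0.17, interval -0.04 to 0.39, adjusted p = 0.786). MEHP (0.53 to 0.63), DOM (0.50 to 0.57) and BDB (0.48 to 0.65) overlapped with DMSO.

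**Figure D3:**
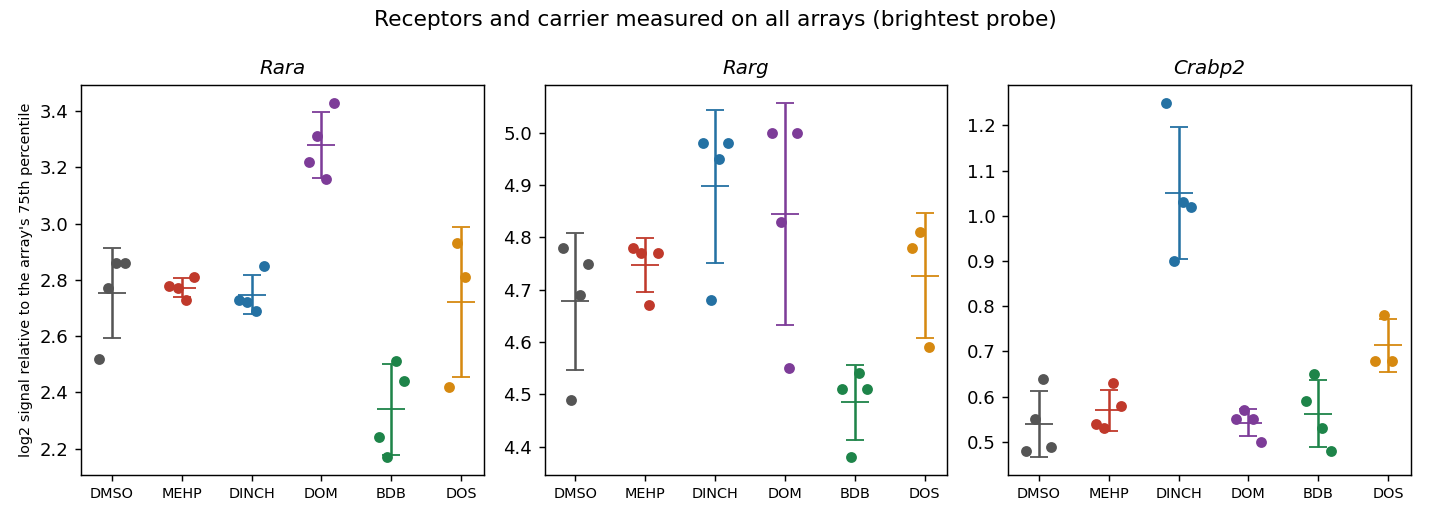
Log2 signal of Rara (brighter probe), Rarg and Crabp2 relative to the array's 75th percentile, 1 point per array, with the mean and SD of each group as bars (n = 4, DOS n = 3); each panel has its own vertical axis. DOM arrays are highest for Rara (3.16 to 3.43), BDB arrays are below every DMSO array for Rara (2.17 to 2.51), and DINCH arrays are highest for Crabp2 (0.90 to 1.25).

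With MEHP, 2 of the 5 tested members were called, where 1.69% of all 11948 tested genes were called. The 1 that rose and the 1 that fell stand against 1.13% of all genes higher and 0.561% lower. With DINCH 1 of 5 rose, against 8.26% of genes called, 4.25% higher and 4.02% lower. DOM also had 1 of 5, near the background of 20.5% called, 9.9% higher and 10.6% lower. The other 4 of the 9 members were not tested and enter none of these counts. The members were chosen with earlier results of these data known, and the study itself lists Aldh1a1 and Dhrs3 among genes changed by MEHP. The counts are therefore a description and not a test of the group.

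With BDB and DOS 0 of 5 members were called, and 0 of all genes tested were called in either direction. At an unadjusted p below 0.05, 2 of 5 members passed for BDB against 19% of all genes, and 1 of 5 passed for DOS against 7.73%. The same count was 2 of 5 for MEHP (21.6% of all genes), for DINCH (34.4%) and for DOM (50.9%). On the brightest probe, 2 of 5 members had no overlap with DMSO for MEHP (14.4% of all genes), DINCH (24%), DOM (39.4%) and DOS (8.11%), and 1 of 5 for BDB (12%). The 5 members had a median change of 0.03 under MEHP, 0.36 under DINCH, 0.17 under both DOM and DOS, and -0.19 under BDB, beside medians of -0.03 to 0.00 over all genes. All 5 comparisons used the same 4 DMSO arrays.

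**Figure D4:**
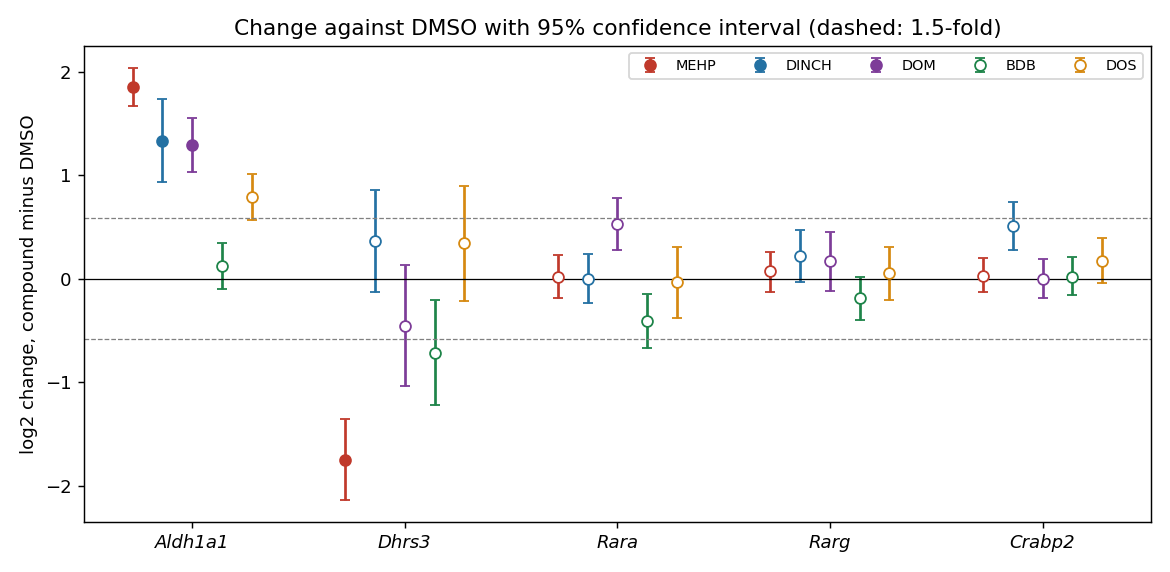
Log2 change against DMSO with its 95% confidence interval for the 5 members measured on all arrays (brightest probe), by compound; filled points were called and dashed lines mark 1.5-fold. Filled points are the 3 changes of Aldh1a1 with MEHP, DINCH and DOM (1.85, 1.33 and 1.29) and that of Dhrs3 with MEHP (-1.75).

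Since all compounds were given at the same dose and for the same time, their readouts were also compared with each other, over 10 pairs in a fit of all 6 groups with p-values adjusted over the 10 pairs and all probes. Of the 50 combinations of a member and a pair, 13 were called, against 11.2% of all combinations of a gene and a pair. Dhrs3 made up 7 of them, Aldh1a1 5 and Rara 1. Rarg and Crabp2 had none.

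MEHP differed from each other compound in Dhrs3. It was lower by 2.11 log2 units than DINCH (95% confidence interval of the difference -2.66 to -1.56, adjusted p = 7.18e-06) and lower by 2.09 than DOS (interval -2.69 to -1.49, adjusted p = 2.11e-05). The differences to DOM (-1.29, interval -1.85 to -0.74, adjusted p = 0.00133) and to BDB (-1.03, interval -1.58 to -0.48, adjusted p = 0.00801) were smaller. MEHP and DINCH differ in structure, as a phthalate monoester with an aromatic ring against a diester of a saturated ring, and over that pair 1 of 5 members was called against 3.76% of genes. The MEHP pairs with DOM, BDB and DOS had 1, 2 and 2 of 5 members called against 19%, 3.01% and 1.57% of genes.

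In Aldh1a1, MEHP was 1.74 log2 units above BDB (adjusted p = 4.25e-08) and 1.06 above DOS (adjusted p = 3.78e-05), both called. It was 0.52 above DINCH (interval 0.23 to 0.81, adjusted p = 0.0118) and 0.57 above DOM (interval 0.27 to 0.86, adjusted p = 0.00677), both under 1.5-fold and not called. The first of these passed the limit without DINCH replicate 1 (0.66) or 4 (0.59), and the second without DOM replicate 1 (0.65) or MEHP replicate 3 (0.60). DINCH and DOM, a diester of a ring and an open-chain diester, differed in Aldh1a1 by 0.05 (interval -0.25 to 0.34, adjusted p = 0.871), which leaves out a 1.5-fold difference. DINCH was 1.22 above BDB (adjusted p = 3.14e-06) and DOM 1.17 above BDB (adjusted p = 5.29e-06).

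DOM and DOS differ by the carbon-carbon double bond of maleate, which succinate lacks, and 0 of 5 members were called between them, against 15.7% of all genes. Aldh1a1 was 0.50 log2 units higher with DOM (interval 0.18 to 0.82, 1.41-fold, adjusted p = 0.0249), Rara was 0.56 higher (interval 0.32 to 0.80, 1.48-fold, adjusted p = 0.00129) and Dhrs3 was 0.80 lower (difference -0.80, interval -1.39 to -0.20, adjusted p = 0.0556). These intervals exclude 0, so the absence of calls does not show that both act alike on the 3 genes. Rara was called with the slide as a block (0.62, adjusted p = 0.000129), after quantile normalization (0.59), with only the arrays in range (0.65), and without DOM replicate 3 (0.60), DOS replicate 3 (0.67) or DOS replicate 4 (0.61). Dhrs3 passed without DOS replicate 1 (-1.04), DOM replicate 4 (-1.01), BDB replicate 1 or DMSO replicate 1 (both -0.80). Rarg (0.12, interval -0.11 to 0.35) and Crabp2 (-0.17, interval -0.34 to -0.01) differed by less than 1.5-fold over their whole intervals.

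BDB, a dibenzoate, and DOS, both without a called gene against DMSO, were told apart by 2 of 5 members, against 2.12% of genes. Aldh1a1 was lower with BDB by 0.67 (difference -0.67, interval -0.99 to -0.35, adjusted p = 0.00332) and Dhrs3 by 1.06 (difference -1.06, interval -1.66 to -0.46, adjusted p = 0.0113). The Dhrs3 call was lost without DOS replicate 3 (-0.83, adjusted p = 0.0754) and with only the arrays in range (-0.88, adjusted p = 0.0636). Rara was higher with DOM than with BDB by 0.94 (interval 0.72 to 1.16, 1.92-fold, adjusted p = 2.22e-06), the 1 receptor difference called, and it was called under all 28 alternatives tried. On the second Rara probe the same difference was 0.32 (interval -0.05 to 0.69, adjusted p = 0.231). The pair of DOM and BDB had 2 of 5 members called against 26.4% of genes.

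DINCH stood above BDB in Dhrs3 by 1.08 (interval 0.53 to 1.63, adjusted p = 0.00565) and above DOM by 0.82 (interval 0.27 to 1.37, adjusted p = 0.0331). The second call was lost when any of 5 arrays was left out: DINCH replicate 1 (0.65), 3 (0.81) or 4 (0.83), or DOM replicate 2 (0.73) or 3 (0.63). It was also lost in a fit of only the 2 compounds' arrays (0.82, adjusted p = 0.0727) and with only the arrays in range (0.85, adjusted p = 0.104). DINCH and DOS differed in Dhrs3 by 0.02 (interval -0.57 to 0.62), too wide to exclude a 1.5-fold difference. In Aldh1a1 DINCH was 0.54 above DOS (interval 0.23 to 0.86, adjusted p = 0.0146), under 1.5-fold, and passed the limit without DINCH replicate 2 (0.59) or 3 (0.71). In these pairs 2 of 5 members were called for DINCH and BDB (10.3% of genes), 1 for DINCH and DOM (23.1%) and 0 for DINCH and DOS (7.08%). Crabp2 was higher with DINCH than with each other compound, by 0.34 (DOS, adjusted p = 0.00418) to 0.51 (DOM, adjusted p = 3.85e-05), with no difference reaching 1.5-fold.

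In order of Aldh1a1 level the groups ran MEHP (0.14), DINCH (-0.38), DOM (-0.43), DOS (-0.93), BDB (-1.60) and DMSO (-1.72). Of the neighbours in this order that are both compounds, DINCH and DOM did not differ beyond their spread, DOS and BDB were called apart, and MEHP and DINCH and also DOM and DOS passed the adjusted p but not the fold limit. The order for Dhrs3 was DINCH (1.36), DOS (1.34), DMSO (1.00), DOM (0.55), BDB (0.28) and MEHP (-0.75), in which MEHP and its neighbour BDB were called apart and DINCH and DOS, like DOM and BDB, were not. No order of levels between the 2 genes can be read from different probes.

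Aldh1a7, a close paralog of Aldh1a1 that is not among the 9 members, was well above background on all 4 MEHP arrays (-3.22, -3.19, -3.47 and -3.49), all 4 DOM arrays (-3.25, -3.91, -3.56 and -4.03) and 1 DMSO array (-2.15). The other 3 DMSO arrays (-6.90, -6.30 and -6.52) and all DINCH, BDB and DOS arrays were not well above background. MEHP was at least 1.90-fold higher than DINCH, 2.01-fold higher than BDB and 2.24-fold higher than DOS, limits taken against the lowest detected signals. The DOM arrays were at least 1.49-fold, 1.58-fold and 1.76-fold higher than the same groups. A probe can read above the lowest detected signal without being well above background, so these limits are approximate. The probe was tested in these pairs only through the MEHP or DOM arrays, so no p-value is given for them. Against DMSO the changes of 2.13 with MEHP and 1.78 with DOM were not called. The probe entered these comparisons too only through the MEHP or DOM arrays, so their p-values are left out. Without DMSO replicate 3, which read higher than every MEHP and DOM array, no DMSO array was well above background. By the same limits MEHP and DOM were then at least 1.98-fold and 1.56-fold higher than DMSO. No p-value is given for this, since the probe again entered only through the MEHP or DOM arrays. After normexp background correction the changes were 0.32 and 0.15. Whether the probes of Aldh1a1 and Aldh1a7 share signal was not tested.

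Another 63 genes of the retinoid pathway were listed by role, of which 37 were well above background on all arrays and 15 on none. Of 40 tested (39 for DOS), MEHP changed 1 (higher), DINCH 4 (2 higher, 2 lower) and DOM 9 (5 higher, 4 lower), and BDB and DOS 0. The shares of all genes called were 1.69%, 8.26% and 20.5% for MEHP, DINCH and DOM, so the list counts lay near them. The medians over the tested genes of the lists lay between -0.01 and 0.04 for all compounds. Among the genes on no array were Stra6 and Lrat, which take up and esterify retinol, and the retinoic acid induced genes Stra8 and Hoxb1.

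Rdh11, a retinal reductase of the endoplasmic reticulum, rose with MEHP (0.76, adjusted p = 0.034), DINCH (0.83, adjusted p = 0.018) and DOM (0.67, adjusted p = 0.0109). Its MEHP call was lost when any of the arrays but DMSO replicate 1 was left out (adjusted p 0.0616 to 0.108) and with the slide as a block (0.71, adjusted p = 0.0518). Its DINCH call was lost without DMSO replicate 2 or 3 (adjusted p = 0.0501 and 0.0568), and its DOM call was lost without DOM replicate 1, where the change was 0.53. When all probes were tested the MEHP, DINCH and DOM calls were lost (adjusted p = 0.241, 0.121 and 0.0688). All 3 were also lost with only the arrays in range (adjusted p = 0.122, 0.133 and 0.0614). Where detection on 1 array was enough for testing, MEHP and DINCH were not called (adjusted p = 0.0896 and 0.0523). Of the 13 tested genes of retinol and retinal interconversion the others called were Dhrs7 and Adh7. Dhrs7, a short-chain dehydrogenase, fell by 0.67 with DOM (adjusted p = 6e-04) and by 0.60 with DINCH (adjusted p = 0.00895), close to the fold limit, and without DMSO replicate 1, DINCH replicate 2 or DINCH replicate 4 the DINCH change was -0.58, -0.58 and -0.53 and was not called. Adh7, an alcohol dehydrogenase that acts on retinol, fell by 1.55 with DOM (adjusted p = 0.00149).

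Among uptake and storage genes, Lpl, the lipase that frees retinol from circulating esters, fell with DINCH on both of its probes (by 1.06 and by 0.96, adjusted p = 0.0135 and 0.0114). Aldh2, the mitochondrial aldehyde dehydrogenase, rose by 0.63 with DOM (adjusted p = 0.00349), and without DMSO replicate 1 the change was 0.56 and not called. All 12 nuclear partners, carriers and coregulators were measured on all arrays. Rxra, the partner of the RAR receptors, rose by 0.92 with DINCH on its brighter probe (adjusted p = 0.00537), while its second probe gave -0.15 (adjusted p = 0.664). Nr2f2, an orphan nuclear receptor induced by retinoic acid in many cells, rose by 0.84 with DOM (adjusted p = 0.00143), and Fabp5, which carries retinoic acid to PPARδ, fell by 1.45 (adjusted p = 0.00711).

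Of 9 tested retinoic acid induced genes, 2 were called with DOM, near the 20.5% of all genes. DOM raised Hoxb5, a homeobox gene, by 1.71 (adjusted p = 0.000359). The other, Rarres2, the gene of the chemokine chemerin, read 0.69 lower. The Hoxb5 call held under all 20 alternatives. Rarres2 was near background, well above it on 3 of 4 DOM arrays and on all 4 DMSO arrays. It entered the test only through DMSO, where it was higher, so no p-value is given for it. Its call was lost under 15 of 20 alternatives, among them the loss of any of 7 arrays, all but DMSO replicate 1. With MEHP 0 of 9 genes of this list were called, against 1.69% of all genes, and the list's median change was 0.00. At so low a share, 0 of 9 says little about these genes.

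**Figure D5:**
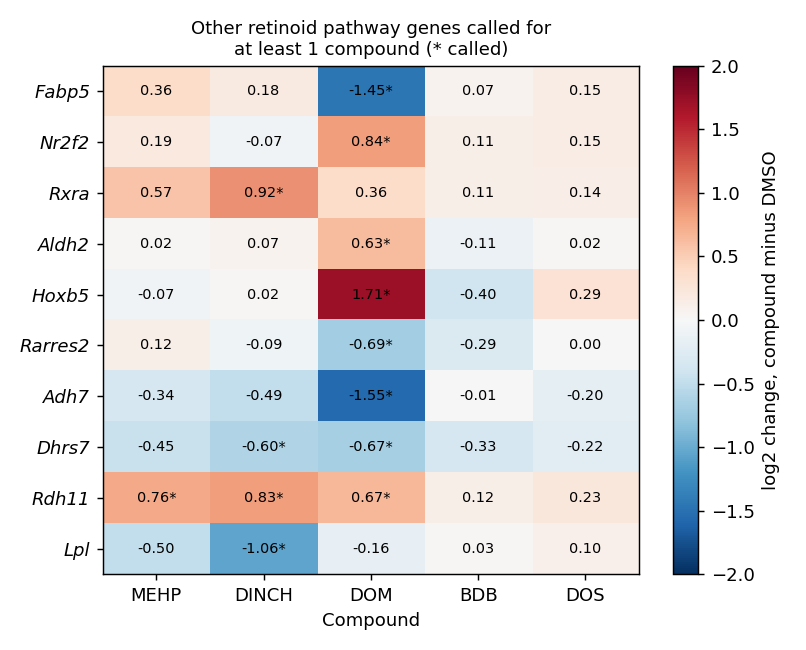
Log2 change against DMSO of 10 other retinoid pathway genes called for at least 1 compound (rows, brightest probe) by compound (columns), coloured from blue (lower) to red (higher) on a linear scale, with asterisks on called changes. The DOM column holds 8 of the called changes, and Rdh11 is the gene with called changes under 3 compounds (0.76, 0.83 and 0.67).

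The genes whose pattern over the 23 arrays was most like that of Aldh1a1, by the root mean square difference of log2 levels taken relative to each gene's own DMSO mean, were Sema3b (0.30), Pmvk (0.38), Lpin1 (0.44), Mvd (0.45) and Fkbp1b (0.47), against a median of 1.18 over 11158 genes. Mvd and Pmvk encode enzymes of the mevalonate pathway and Lpin1 a phosphatidate phosphatase. Sema3b differed from DMSO by 1.38 with MEHP, 1.63 with DINCH, 1.18 with DOM, 0.23 with BDB and 0.65 with DOS. It was picked for its likeness over these same arrays, so a sign shared with Aldh1a1 is no separate result. In Sema3b DINCH was above MEHP, unlike in Aldh1a1. For Dhrs3 the nearest were Slc17a9 (0.56), Trim21 (0.58), Igtp (0.61), Xaf1 (0.61) and Pi16 (0.63), against a median of 0.93, so that no gene came as near to Dhrs3 as Sema3b came to Aldh1a1. Trim21, Igtp and Xaf1 are known as interferon-induced genes. These likenesses are descriptions over arrays that share slides and the DMSO group.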

How the data were processed

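RNA of 23 TM4 cultures was hybridized to 23 Agilent 1-colour (Cy3) mouse arrays of 62976 spots on 3 slides. The deposited scanner files hold intensity values: the authors' Feature Extraction software subtracted the background and wrote a processed signal for each spot. A deposited table holds the authors' log2 values after a 75th percentile shift, and each of its columns correlated at 0.9996 or more with its own array and at 0.408 or less with any other. It was used as an alternative. From the scanner files, control spots and outlier spots were left out, signals were floored at 1 and log2 transformed, each array's 75th percentile was subtracted, and spots of a probe were averaged. Probes were named through their RefSeq accession, which gave a gene for 26582 of the 55681 probes.

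Each compound was tested against DMSO on its own with limma 3.58.1 in R 4.3.3 (moderated statistics, Benjamini-Hochberg adjustment over all tested probes). Probes entered the test if all arrays of either compared group had them well above background and no lower than that array's 20th percentile. A called probe was enough to call its gene. Compounds were compared with each other in a fit of all 6 groups. Figures were drawn with matplotlib 3.10.9 in Python 3.11.15. The scripts were tested on simulated data.

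The genes named are the 9 members, the listed retinoid pathway genes called for at least 1 compound, and the 5 genes most like Aldh1a1 and Dhrs3. Cell type markers, Aldh1a7, the breakdown genes and genes on no array were named beside them after their values were seen. Of the called pathway genes, 1 is not reported here, although the counts include it. The members and lists were chosen with earlier results of these data known. The methods describe the replicates as biological, and no 2 arrays of a group were identical (smallest mean absolute log2 difference 0.341). Whether replicate numbers pair a compound with DMSO was checked by correlating deviations from the group means. For DINCH (0.17 to 0.50), BDB (0.25 to 0.43) and DOS (0.20 to 0.45) r was over 0.1 in all pairs. It was not in all pairs for MEHP (-0.14 to 0.45) and DOM (0.04 to 0.43). The reported tests used no pairing for any compound, also where r was over 0.1 in all pairs. Their standard errors, intervals and p-values are therefore unpaired, and replicate number entered only as a block in an alternative. Alternatives tried were other filters, normexp background correction (offset 50, median signals), quantile normalization, blocks for slide or replicate number, 1 fit of all groups, a variance trend, only the brightest probe, outlier spots kept, the authors' table, each array left out in turn, and only the 15 arrays in range, the last chosen after seeing the data. The comparison of compounds also had the in-range, replicate block and left-out array alternatives added after seeing the data. Promoter sequences are from RefSeq for GRCm38.p6, and the array design uses an older build, from which no coordinates are given.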

Additional observations from a re-analysis of the deposited data

Results flagged for a closer look

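In 5 of 35 groups of 4 arrays tested by Dixon's ratio, 1 array stood far from the others, where chance gives about 1 in 20. For Dhrs3, DMSO replicate 1 read 0.53 while the other DMSO arrays read 1.14 to 1.20, and without it the MEHP change was -1.91. BDB replicate 1 read -0.35 for Dhrs3 and the other BDB arrays 0.46 to 0.56. For Rarg, MEHP replicate 3 read 4.67 against 4.77 to 4.78 on the other MEHP arrays. DINCH replicate 2 read 4.68 for Rarg against 4.95 to 4.98. For the paralog Aldh1a7, DMSO replicate 3 read -2.15 and was well above background, while the other DMSO arrays read -6.90 to -6.30 and were not.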

How the results depend on the processing

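Members called numbered 2 with MEHP, 1 each with DINCH and DOM, and 0 each with BDB and DOS, and leaving out each array in turn gave 2 to 2, 1 to 1, 1 to 1, 0 to 0 and 0 to 0. Testing all probes gave 1 for MEHP (Dhrs3 lost) and 0 for DINCH (Aldh1a1 lost), only the arrays in range gave 0 for DINCH, with 2 DINCH arrays against 3 DMSO arrays, and the slide as a block gave 1 for BDB (Dhrs3, -0.72, adjusted p = 0.0463). The replicate block gave 2, 1, 1, 0 and 0 and 13 calls between compounds, and changed no member's call against DMSO. Calls between compounds ranged from 12 to 14 of 50 over all alternatives. No called result changed sign under an alternative. Among results that were not called, 10 differences near 0 took either sign, such as Rarg with DOS (-0.08 to 0.12). Over 20 alternatives Aldh1a1 lay between 1.36 and 1.89 for MEHP, 0.92 and 1.5 for DINCH and 0.95 and 1.38 for DOM, and Dhrs3 between -1.91 and -1.42 for MEHP. Lpl and Rxra lost their DINCH calls when all probes were tested and with only the arrays in range. Aldh1a7 entered the test only through the DOM arrays, so its call for DOM in the fit of all groups is no support for a change.

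Counts over all genes moved more. For MEHP 202 genes were called, against 3 when all probes were tested, 98 with detection on 1 array, 115 after normexp, 68 with the arrays in range and 88 to 237 with an array left out. DINCH had 984, against 97, 609, 594, 3 and 571 to 1055 in the same order. DOM had 2463, against 1627 after normexp. BDB had 0, against 42 after normexp, 100 with the slide as a block, 120 in the fit of all groups and 82 with a variance trend. DOS had 0, against 2 after normexp, 8 with the arrays in range and 8 without DOS replicate 3. The 4 members near background have no tested change, and signal over background is the limit there.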

Other observations

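Rxra read 0.57 log2 units higher with MEHP than with DMSO (adjusted p = 0.0229), under the 1.5-fold limit, while its second probe gave -0.09 (adjusted p = 0.815). Adh7 read -0.49 with DINCH (adjusted p = 0.0416), also under it.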
